A study of Equus caballus with 4 samples.

Results

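The cytosolic ribosome is built from ribosomal RNA and a set of proteins of the small (RPS) and the large (RPL) subunit. The messenger RNA (mRNA) of these proteins is among the most abundant of a growing cell, and its translation is controlled together through a short pyrimidine tract at its start, under the growth signal that leucine activates. In muscle, ribosome number sets how much protein a fibre can make, and a few ribosomal proteins have a second, tissue-restricted copy. The genes described here are those whose symbol on the horse array is that of a cytosolic ribosomal protein, which gave 62 genes, 26 of the small and 36 of the large subunit. They were read by 229 of the 43603 probes of the array, and 229 of these 229 probes passed the filter on dim spots, against 27383 in all; 228 of them were above background in both channels on each array, and 1, of *RPS12*, passed through the HMB channel.

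Satellite cells, the stem cells of skeletal muscle, came from the *semitendinosus* muscle of young colts and had differentiated for 48 h in medium with a low share of horse serum. HMB (β-hydroxy-β-methylbutyrate), which cells make from leucine, was then present for 24 h, or the same medium without it was used, and RNA was taken on day 3 of differentiation. The titles, sources and protocol of the samples and the methods name HMB, but the description line of each sample calls the Cy5 cells GO-treated, a treatment the sources do not explain, and ends in the same replicate number on every array; the titles were followed. The dose is given as 50 µg in the sample protocol and in molar units in the methods. On each of 4 two-colour arrays (*n* 4) the HMB-treated cells carried Cy5 and the control cells Cy3, so an effect of HMB and a dye bias of a probe cannot be told apart. The sources name the replicates as biological but do not say which animals gave the cells of each array, and the number of arrays limits the precision. A ratio is the log2 of HMB over control, a value after ± is the SD over the 4 arrays, and P is limma's, adjusted over the 27383 tested probes by the Benjamini and Hochberg method, with a threshold of 0.05.

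With the deposited, lowess-normalised ratios, most ribosomal protein genes lay close to 0. By the brightest probe of each gene, 9 of 62 rose and 2 fell, which is 17.7%, while 22.5% of the 15539 genes or transcripts tested passed the same threshold, 10.9% higher and 11.6% lower. The share was therefore near that of the array as a whole. With an intensity trend and a robust prior, changed together in the variance model, 18 rose and 3 fell (33.9%), against 23.7% of all genes. The count depended on which arrays entered, and so did that of all genes: it was 1 without array 3 (against 9.72% of all genes), 2 without array 2 (8.96%), 6 without array 4 (17.6%) and 13 without array 1 (17.1%). Of the 11 genes called, 8 were also called without array 1, 2 without array 2, 1 without array 3 and 5 without array 4. By probe, 42 of 229 rose and 2 fell (19.2%, against 22.8% of all tested probes, 11.2% higher and 11.6% lower), and with the filter on both channels 43 of 228 rose and 2 fell (19.7%, against 22.1% of all probes). The median ratio of the 62 genes was 0.10, and that of all genes was 0.018. The mean ratio of 42 genes was within 0.2 of 0, and that of 1 gene, *RPL3L*, was over 0.5 in size. In bulk RNA, fewer cells of a type and less RNA per cell cannot be told apart.

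**Figure D1:**
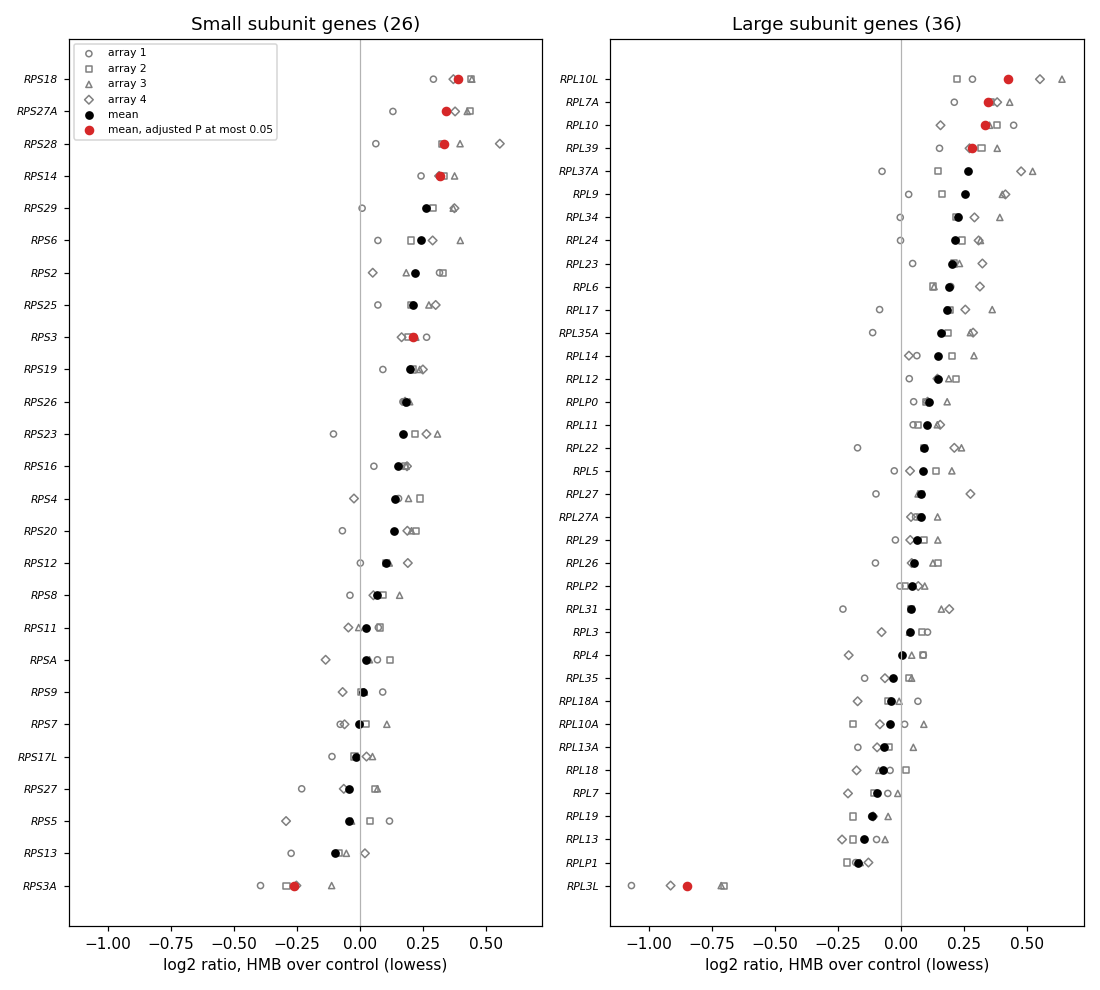
Log2 ratio of HMB over control for 62 ribosomal protein genes by the brightest probe, with open symbols for the 4 arrays and filled points for the mean, red where the adjusted P was at most 0.05. The means run from -0.85 for RPL3L to 0.42 for RPL10L, and array 1 is often the lowest of the 4; without lowess the means of 61 of the 62 genes are above 0.

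The size of the shift of the group, and the sign of 15 members, depended on how the dyes were normalised. Without lowess, with each array centred on its median, 59 of 62 genes rose and 1 fell, against 25.0% of all genes tested (10.4% higher and 14.5% lower), and the median of the members was 0.93. With normexp background correction and loess, 40 rose and 1 fell, against 21.4% (9.09% higher and 12.3% lower), and the median was 0.37. Each of the 3 processings sets the centre of each array, so a shift common to all genes would not be seen with any of them. Of the 11 genes called with lowess, 10 were also called in the same direction without it and 9 with normexp. Of the 51 genes not called with lowess, 50 rose without it and 32 with normexp.

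Ribosomal protein probes were among the brightest spots, where the dye correction was largest. The median member stood at percentile 99.2 of processed signal, and 121 of the 274 probes in the brightest 1% were members. Without lowess the ratio of other probes climbed with signal, from a median of -0.012 at a log2 signal of 8 to 10 to 0.84 at 16 or more. Above 16, the 171 member probes had a median of 1.00, which is 0.16 above the 257 other probes. With lowess the medians of the same probes were 0.15 and 0.0025, a difference of 0.14, and with normexp 0.44 and 0.29, a difference of 0.15. The distance between members and other bright probes was thus alike in the 3 processings, while the level of both was not. Each processing shifts an array by a constant or along a curve of signal, so probes of like signal move nearly together. The likeness of the distances therefore follows largely from the method and is no separate evidence. By array, this distance with lowess was -0.018, 0.18, 0.25 and 0.22, so that it was absent on array 1. With lowess, 38 of these 171 member probes rose and 0 fell (22.2%), against 25.7% of the 257 others, 8.95% higher and 16.7% lower. The share of the 171 was 100% without lowess and 90.1% with normexp, against 26.1% and 22.8% of all tested probes. All tested probes are mostly dimmer and so not a matched background. The 257 others were not counted in these 2 settings, where their medians were 0.84 and 0.29. Without arrays 1 to 4 in turn it was 29.2%, 2.34%, 2.34% and 13.5%, against 17.6%, 9.38%, 9.97% and 18.2% of all tested probes. Among the 59 member genes with a log2 signal of at least 14, the ratio correlated with signal across genes with *r* 0.86 without lowess and *r* 0.41 with it; genes are not independent replicates.

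**Figure D2:**
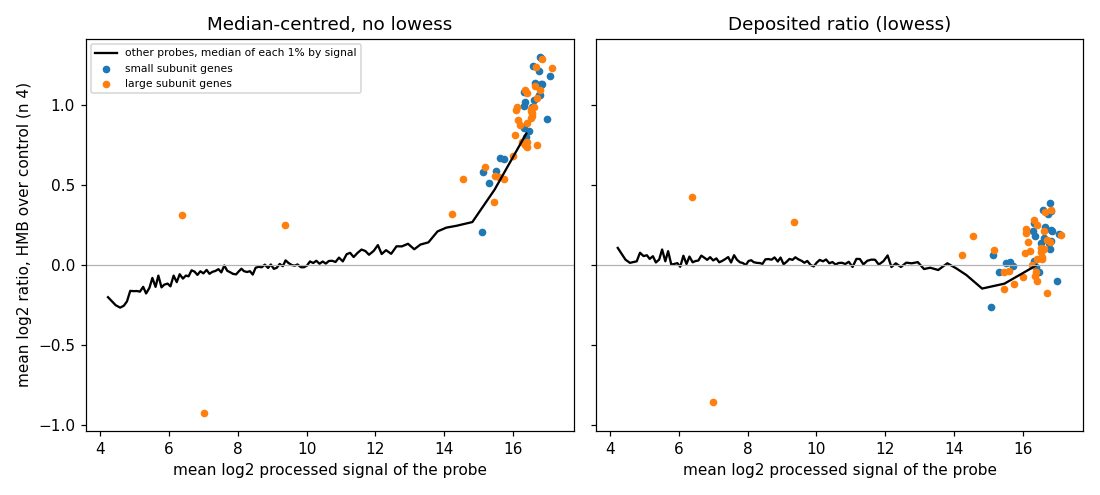
Mean log2 ratio (n 4) against mean log2 processed signal, without lowess on the left and as deposited on the right. Points are the 62 member genes and the line is the median of the other tested probes in steps of 1% of signal; members follow the rise of the line above a signal of 14 without lowess, and lie closer to 0 with it, where 46 of the 62 are above 0.

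Small subunit genes lay slightly above large subunit genes. With lowess, the median of the 26 small subunit genes was 0.070, 0.19, 0.19 and 0.17 on arrays 1 to 4, and that of the 36 large subunit genes was -0.0046, 0.091, 0.14 and 0.086. The small subunit was the higher on 4 of 4 arrays, by 0.075 ± 0.022 (mean and SD of the gaps on the arrays, *n* 4). This gap was 0.18 ± 0.069 without lowess and 0.14 ± 0.030 with normexp, again with the small subunit higher on each array. It was also present among genes with a log2 signal of at least 16, where the medians of mean ratios were 0.19 for 20 small and 0.095 for 26 large subunit genes. In counts with lowess, 5 small subunit genes rose and 1 fell (23.1%), while 4 large subunit genes rose and 1 fell (13.9%), against 22.5% of all genes. In this fit the small subunit's share was close to that of the array. The small and large subunit shares were 96.2% and 97.2% without lowess (25.0% of all genes) and 73.1% and 61.1% with normexp (21.4%). With the intensity trend and robust prior they were 46.2% and 25% (23.7%). Without arrays 1 to 4 in turn, the small subunit's share was 26.9%, 0%, 0% and 11.5%, against 17.1%, 8.96%, 9.72% and 17.6% of all genes. The difference between the subunits was not tested, since the members had been chosen with results known.

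**Figure D3:**
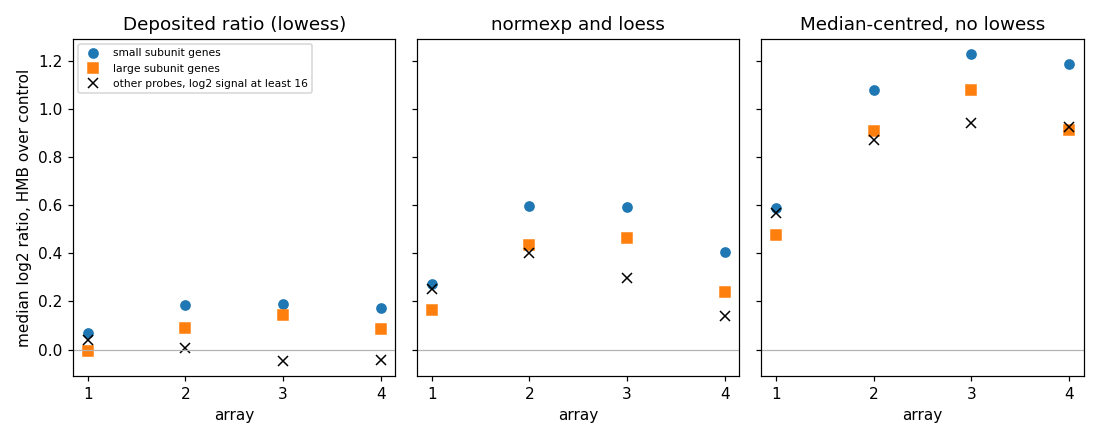
Median log2 ratio on each array of small subunit genes, large subunit genes and other probes with a log2 signal of at least 16, under 3 normalisations. The small subunit median is above the large subunit median on all 4 arrays in each panel, and the other bright probes lie above the large subunit on array 1 in each panel and on array 4 without lowess.

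Of the small subunit genes, *RPS18*, whose protein lies in the head of the subunit, had the largest mean. Its ratios on arrays 1 to 4 were 0.29, 0.44, 0.44 and 0.37, a mean of 0.39 ± 0.072 (adjusted P = 0.00964), with all 4 above 0. *RPS27A*, which is made as a fusion with ubiquitin, had 0.13, 0.44, 0.43 and 0.38, a mean of 0.34 ± 0.14 (adjusted P = 0.0235). Array 1 was the lowest in both. Of the probes of *RPS27A*, 1 of 7 passed, and the mean of the 7 was 0.19 (adjusted P = 0.105). *RPS28* had 0.063, 0.32, 0.40 and 0.56, a mean of 0.34 ± 0.21 (adjusted P = 0.0427), and its arrays spread the most of the 3. *RPS14*, the gene lost in a form of myelodysplastic anaemia, rose with 0.32 ± 0.056 (adjusted P = 0.0157). *RPS3*, which lines the mRNA entry channel, rose with 0.21 ± 0.043 (adjusted P = 0.0464). It missed the threshold whichever array was left out (adjusted P from 0.0578 to 0.177). The study lists *RPS3*, *RPS12*, *RPS14*, *RPS18* and *RPS26* under an enriched term of its differentially expressed genes, with no direction given there. That list comes from these same arrays, so the values here are not independent evidence. *RPS26* had 0.17, 0.18, 0.20 and 0.18, which lie close together, and a mean of 0.18 ± 0.011 that missed the threshold (adjusted P = 0.0635), but it was the 1 member gene that passed when each probe was tested by its own SD in place of limma's (adjusted P = 0.0317), against 2.63% of all genes. *RPS12* had 0.10 ± 0.078 (adjusted P = 0.273).

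*RPS6*, the substrate of the S6 kinases, had a mean of 0.24 ± 0.14 and did not pass (adjusted P = 0.0610). Of its 2 probes, 1 passed, and the mean of both was 0.26 (adjusted P = 0.0356). *RPSA*, which also serves as a laminin receptor, had 0.023 ± 0.11 (adjusted P = 0.832), with array 4 below 0 and the others above. *RPS19*, the brightest small subunit gene, had 0.20 ± 0.073 (adjusted P = 0.0642). *RPS3A* was the small subunit gene that fell, with -0.39, -0.29, -0.11 and -0.25, all below 0. Its mean was -0.26 ± 0.12 (adjusted P = 0.0404). It missed the threshold whichever array was left out (adjusted P from 0.0709 to 0.162). Without lowess its mean was 0.21, and with normexp -0.19 (adjusted P = 0.0848), so its direction depends on the dye normalisation. It is read by 1 probe, whose record is described as an S3A-like mRNA of the Y chromosome and which is shown because the fall rests on it, at chr2:67807629-67807856 on the minus strand of the EquCab1 build, the build of all positions given.
RPS3A: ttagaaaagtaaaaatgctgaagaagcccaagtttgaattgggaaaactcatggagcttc

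Among large subunit genes, *RPL7A* had 0.21, 0.36, 0.43 and 0.38, a mean of 0.34 ± 0.095 (adjusted P = 0.0159). Its other probe had 0.10 and did not pass, and the mean of both was 0.22 (adjusted P = 0.0463). *RPL39*, which lines the exit tunnel, rose with 0.28 ± 0.097 (adjusted P = 0.0284). All 4 arrays were above 0 for the probes called in both. *RPL6*, the brightest large subunit gene, had 0.19 ± 0.087 (adjusted P = 0.0772). The stalk proteins, which recruit translation factors, did not pass the threshold, with 0.11 ± 0.055 for *RPLP0*, -0.17 ± 0.035 for *RPLP1* and 0.043 ± 0.046 for *RPLP2*. By the mean of each gene's probes these were 0.011, -0.11 and 0.089 (adjusted P = 0.916, 0.209 and 0.316). *RPLP0* and *RPLP2* rose without lowess (0.97 and 0.92) and with normexp (0.39 and 0.35). *RPLP1* was below 0 on all 4 arrays, and its mean was 0.75 without lowess. The mean of 15 members changed sign without lowess. Of these, the other 4 with the largest moves were *RPS13* (-0.098 against 0.91), *RPS27* (-0.041 against 0.83), *RPL7* (-0.096 against 0.73) and *RPL13A* (-0.067 against 0.75).

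The fall that passed the threshold under each of the 3 normalisations was that of *RPL3L*, the copy of *RPL3* that is restricted to striated muscle. Its ratios were -1.07, -0.70, -0.71 and -0.92 on arrays 1 to 4, a mean of -0.85 ± 0.18 (adjusted P = 0.00240), and each array was below the lowest value of any other member. It was -0.92 without lowess and -0.66 with normexp, and it was the 1 member called whichever array was left out, although it did not pass when tested by its own SD in place of limma's (adjusted P = 0.0567). Its processed signal was 197, 169, 157 and 168 in control cells and 93.7, 104, 96.0 and 89.1 in HMB-treated cells, with no overlap. *RPL3L* is read by 1 probe, so the fall rests on it alone. That probe was dim, at percentile 29.3 of processed signal, against 99.2 for the median member. *RPL3* had 0.10, 0.084, 0.033 and -0.078, a mean of 0.036 ± 0.082 (adjusted P = 0.711), with array 4 below 0. This probe had the lowest mean of the 5 of *RPL3*, and the mean of the 5 was 0.13 (adjusted P = 0.217). By the same probe *RPL3* rose without lowess (0.88, adjusted P = 0.00129) and with normexp (0.36, adjusted P = 0.0138). The probes of the pair are shown because they separate the copies. The *RPL3L* probe matched those of *RPL3* at no more than 46.8% of bases in ungapped alignment. They span 320 and 356 bases of the genome, and so an intron, at chr28:36024040-36024359 and chrUn:73754409-73754764, both on the minus strand.
RPL3: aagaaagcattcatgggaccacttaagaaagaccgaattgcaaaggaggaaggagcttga
RPL3L: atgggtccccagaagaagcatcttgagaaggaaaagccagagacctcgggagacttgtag

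*RPL10L* is a copy of *RPL10* without introns that is known from testis. By the brightest probe it had the largest mean rise with lowess, while *RPS18* had it without lowess and with normexp (0.71 with the latter). By the mean of a gene's probes with lowess, *RPS18* had 0.50 and *RPL10L* 0.35. The ratios of *RPL10L* were 0.28, 0.22, 0.64 and 0.55, a mean of 0.42 ± 0.20 (adjusted P = 0.0214). Its mean was 0.31 without lowess, where 3 members were lower, and 0.20 with normexp, where it missed the threshold (adjusted P = 0.0563). Its 5 probes overlap, have means from 0.28 to 0.42, and 3 of 5 passed the threshold. They were dim, with a log2 signal of 6.39 for the brightest. *RPL10*, which joins the subunit last, had 0.45, 0.38, 0.35 and 0.16, a mean of 0.33 ± 0.12 (adjusted P = 0.0219), but its other 2 probes had -0.045 and 0.066, and the mean of the 3 was 0.12 (adjusted P = 0.288). The *RPL10* probe with a mean of 0.066 matched an *RPL10L* probe at 48 of 55 bases, with 7 differences.

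**Figure D4:**
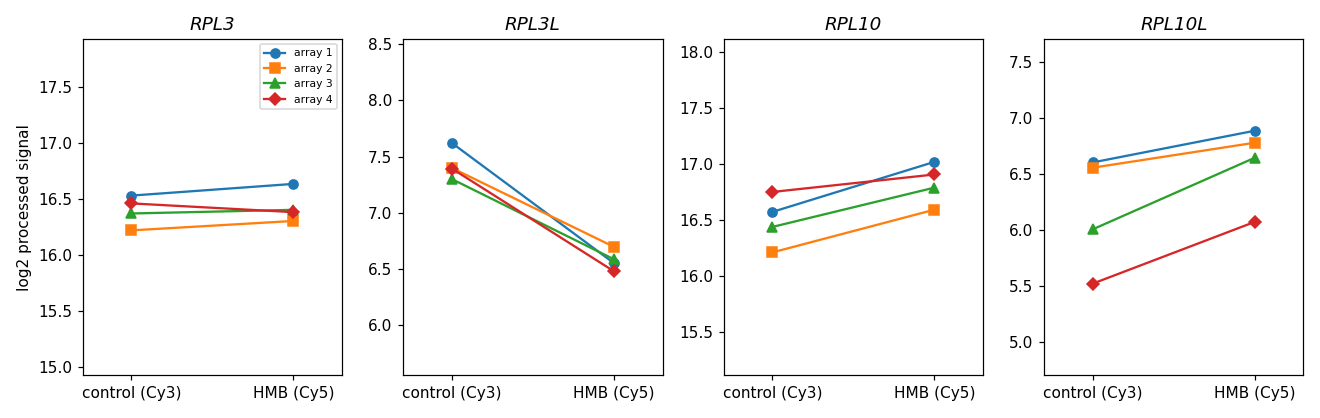
Log2 processed signal of control (Cy3) and HMB-treated (Cy5) cells on the 4 arrays for RPL3, RPL3L, RPL10 and RPL10L, each with its own axis of equal span. All 4 lines fall for RPL3L, the lines for RPL3 are nearly level with these lowess-normalised signals, and those for RPL10 and RPL10L rise.

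Probes of a gene differed. Of 42 genes with over 1 probe above background in both channels, 9 had probes of both signs and 8 had a range of means over 2 times the median SD of a gene. In 12 genes some but not all probes passed, and in 8 of these the brightest did not. Probes with the same sequence set a scale for this, since 20 probes shared 6 sequences and their means differed by 0.0042 to 0.10. The widest ranges were those of *RPS12*, *RPL10* and *RPS27A*. In *RPL10* the lowest probe differs from the brightest in the 37 bases that both cover at T35G, A47G and A55C, counted from the first base of the lowest probe, with the base of the brightest probe written first and the differing bases in capitals. They lie at chrUn:276241170-276241229 and chrUn:276241193-276241252 on the plus strand. The *RPL10L* probe, at chr1:175001294-175001353 on the minus strand, is set beside them.
RPL10 lowest: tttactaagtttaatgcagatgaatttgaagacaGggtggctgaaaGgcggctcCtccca
RPL10 brightest: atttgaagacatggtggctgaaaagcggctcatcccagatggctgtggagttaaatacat
RPL10L: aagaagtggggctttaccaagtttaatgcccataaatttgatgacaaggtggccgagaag

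In *RPS18* and in the first run of *RPS26* the mean ratio fell as the start of the probe moved by single bases. Means of probes with the same sequence differed by up to 0.10, and each step between neighbouring starts lies within that scale. The 5 *RPS18* probes starting at bases 476 to 480 of the transcript had means of 0.61, 0.55, 0.51, 0.43 and 0.39, and 5 of 5 passed. The *RPS26* probes starting at bases 229 to 233 had means of 0.31, 0.27, 0.24, 0.22 and 0.18, of which 4 passed, while 5 probes further along, at 377 to 381, had 0.060 to 0.14 and did not pass. These sets share most of their bases, so they are not replicates. The first and last of the *RPS26* run, at chrUn:195272654-195272713 and chrUn:195272658-195272717 on the plus strand, show how little the sequence moves while the mean changes from 0.31 to 0.18.
RPS26 first: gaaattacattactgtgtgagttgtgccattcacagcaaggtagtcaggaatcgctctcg
RPS26 last: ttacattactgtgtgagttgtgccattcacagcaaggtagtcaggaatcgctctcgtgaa

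**Figure D5:**
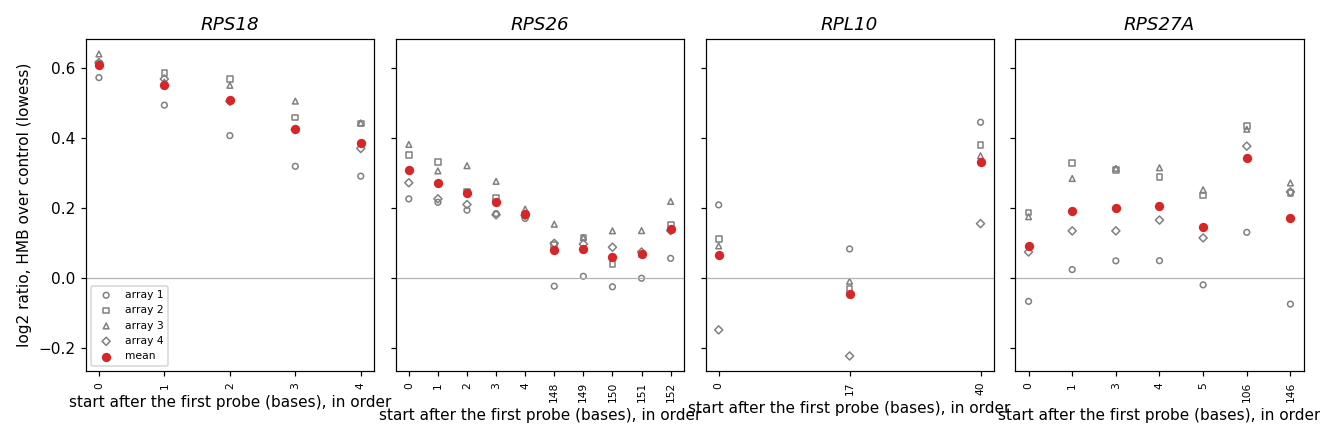
Log2 ratio (lowess) of each probe of RPS18, RPS26, RPL10 and RPS27A, in the order of their start in the transcript, with open symbols for the 4 arrays and red points for the mean. RPS18 runs from 0.61 to 0.39 over a shift of 4 bases, and the RPL10 probe of -0.045 lies between probes of 0.066 and 0.33.

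*RPS12* had 9 probes, of which the 8 above background in both channels on each array had means from -0.16 to 0.29, and none of these passed. The other was above background in the control channel on 2 of 4 arrays and entered the test through the HMB channel, so its ratio is not read here. The lowest spans a splice junction at chr10:73737925-73739063 on the plus strand and was below 0 on 4 of 4 arrays, and without lowess it was 0.62.
RPS12 lowest: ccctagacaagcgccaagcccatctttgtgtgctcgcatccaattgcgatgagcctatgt

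Widening the members to probes whose description or RefSeq symbol names a cytosolic ribosomal protein, a choice made after seeing the data, added 53 tested probes, of which 10 rose and 0 fell in limma's test, with a median of 0.085. This is 18.9%, against 22.8% of all tested probes. At an unadjusted P under 0.05 there were 17 of these 53 (32.1%), against 38.5% of all.

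Genes that act with ribosomal proteins were counted from 3 lists, to be read against the 22.5% of all tested genes that passed. Of 21 tested translation factors and other mRNAs with the pyrimidine tract, 3 rose and 3 fell (28.6%), with a median of 0.029. *EEF1A1*, the factor that brings aminoacyl-tRNA, rose with 0.30 ± 0.19 (adjusted P = 0.0491), but the mean of its 3 probes was 0.11 (adjusted P = 0.415) and it was not called without array 1, 2 or 3. *EIF4A2*, an RNA helicase of initiation, fell with -0.54 ± 0.18 (adjusted P = 0.00889). Without lowess 13 of these 21 rose and 1 fell, against 25.0% of all genes, which are not matched to them for signal. Of 51 tested genes of ribosome biogenesis, 4 rose and 0 fell (7.84%), with a median of 0.11, and *GNL3*, a nucleolar GTPase, had the largest rise, 0.55, 0.59, 0.55 and 0.62 on arrays 1 to 4 and 0.58 ± 0.034 in the mean (adjusted P = 0.00263). Of 13 tested genes in the list of kinases named for S6, ribosomal protein paralogues and *LARP1*, which binds the pyrimidine tract, 1 rose and 1 fell (15.4%), which were *RPL10L* and *RPL3L*. The S6 kinases *RPS6KB1* (0.067 ± 0.087) and *RPS6KB2* (-0.059 ± 0.094) did not pass, and *RPS6KB1* was -0.11 by the mean of its probes. The other 4 paralogues tested did not pass either and are not members, *RPS27L* because its record has no symbol in the files and was named through RefSeq: *RPL7L1* had 0.15 ± 0.091, *RPL22L1* 0.39 ± 0.36, *RPL26L1* -0.026 ± 0.12 and *RPS27L* 0.10 ± 0.23. *RPL22L1* had -0.013, 0.34, 0.39 and 0.85 on arrays 1 to 4, so its arrays spread widely. Without lowess *RPL7L1* (0.24, adjusted P = 0.0498) and *RPS27L* (0.54, adjusted P = 0.0418) passed.

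Of 14 satellite cell and myogenic markers, 10 passed the filter on dim spots, while *PAX7*, *MYMK*, *CDH15* and *TNNT1* had no probe by symbol. The filter also passed 5 of 7 fibroblast markers and 15539 of 24906 genes or transcripts in all, so passing it does not identify the cells. With lowess, 10 of the 10 satellite cell and myogenic markers tested fell in HMB-treated cells, against 11.6% of all genes. Their median was -0.45, -0.88, -1.08 and -1.29 on arrays 1 to 4. Without lowess 9 of them fell and 1 rose, against 14.5% lower and 10.4% higher of all genes. *RPL3L* also fell, with -1.07, -0.70, -0.71 and -0.92 on the same arrays. Its largest fall was on array 1, where the markers moved least, while over arrays 2 to 4 it ran in the same order as their median. A link between them was not tested. Of 5 tested fibroblast markers, *PDGFRA* rose with 1.53 ± 0.47 (adjusted P = 0.00358) and the other 4 did not pass. The brightest *PDGFRA* probe, which gave this value, was dim, with a log2 signal of 6.03. With normexp *PDGFRA* had a mean of 0.89, and *DCN* also passed (0.35, adjusted P = 0.0325). Without lowess 3 of the 5 rose, against 10.4% of all genes, *PDGFRA* with 1.41, *COL3A1* with 0.70 (adjusted P = 0.00602), against -0.21 with lowess, and *DCN* with 0.87 (adjusted P = 0.000791). *COL3A1* and *DCN* were bright, with log2 signals of 16.7 and 15.9. Without lowess, probes outside the members had medians of 0.84 at a signal of 16 or more and 0.46 at 15 to 16. All genes are therefore not a matched background for them. The 4 endothelial and 2 adipocyte markers on the array did not pass the filter on dim spots, and the 2 leukocyte markers and 1 erythroid marker tested did not pass the threshold. The part of these shifts in the ratios of ribosomal protein genes was not tested.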

How the data were processed

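RNA of HMB-treated (Cy5) and control (Cy3) cells was hybridised to 4 arrays on 1 slide without dye swap. The authors made the spot values with Feature Extraction, version 10.10.1.1 per the file headers. The deposited intensity values are background-subtracted signals and dye-normalised processed signals, and the deposited ratios, log10 of HMB (Cy5) over control (Cy3), include a linear and a lowess step. The series' own list of values is identical to them. The file headers name the EquCab1 build.

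Ratios were multiplied by 3.32 to log2. Control spots and those marked as uneven or as outliers were dropped, and repeated spots averaged. Testing required 1 channel clearly above background on 4 of 4 arrays and no fewer than 3 values, which removed 16220 probes. Symbols came from the files for 17038 tested probes and from the RefSeq gene list of another horse assembly for 1241, and 9104 kept their accession. Members were taken by the symbol in the files alone, and a gene is its tested probe of highest mean signal. No member spot was saturated, and 2 were marked. Tests used limma 3.58.1 in R 4.3.3, with the data.table package, version 1.17.8, Python 3.11.15, numpy 2.4.6, pandas 2.3.3 and matplotlib 3.10.9, and the limma fit was tested on simulated data. The alternatives were no lowess (each array centred on the median of tested, or of all, probes), normexp with an offset of 50 and loess, an intensity trend together with a robust prior, each probe tested by its own SD alone, with the same adjustment, no filter, a filter on both channels, marked spots retained, the series' list of values, separate channels without the array as a block, the mean of a gene's probes, and each array left out with at least 2 values. The members and lists were chosen with earlier results of these data known.

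The genes named are the 5 largest rises and falls past the threshold with 1 sign on all arrays, the brightest of each subunit, the stalk genes, *RPSA*, *RPS6*, *RPS27A*, the paralogue members *RPL3L* and *RPL10L*, *RPL3* and *RPS27*, the small subunit genes the study lists, the 3 members with the widest range over probes, up to 5 that change sign without lowess, and the largest rise and fall of each list. *RPL39*, *RPS6KB1*, *RPS6KB2*, the 4 paralogues outside the members, *PDGFRA*, *COL3A1* and *DCN*, and the probes printed, were chosen after their values were seen.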

Additional observations from a re-analysis of the deposited data

Results flagged for a closer look

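In 66 groups of 4 arrays (62 genes and 4 medians), the array farthest from the rest stood apart in 4, where chance gives about 1 in 20 groups, or 3.3. The log2 ratio of *RPL4* was -0.21 on array 4, and the nearest other array had 0.042. *RPS20* had -0.069 on array 1 with the nearest at 0.19, and *RPS16* had 0.056 on array 1 with the nearest at 0.18. The median of the small subunit genes was 0.070 on array 1, with the nearest at 0.17.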

How the results depend on the processing

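The median of the members was above 0 in each setting that gives one, but counts of calls were not stable. Without lowess, 212 member probes and 60 genes were called (25 small, 35 large), against 26.1% of all probes and 25.0% of all genes, the member median was 0.93 and the gap between the subunits' medians of mean ratios 0.15 (0.062 with lowess), with 14 translation factor, 7 biogenesis and 4 kinase or paralogue genes. Centred over all probes, a choice made after seeing the data, these were 216, 60, 25, 35, 0.98, 0.15, 15, 12 and 4, against 28.6% and 27.2%, and calls across the array split into 4636 higher and 3196 lower, against 3340 and 3802 when centred over tested probes and 3071 and 3186 with lowess. With normexp they were 161 probes, 41 genes (19 small, 22 large), against 22.8% and 21.4%, 0.37 and 0.12, and 1 kinase or paralogue gene. The intensity trend with a robust prior, 2 choices changed together, called 67 probes, 21 genes (12 and 9; 33.9%, against 23.7% of all genes) and 8 biogenesis genes. Without the filter 3690 probes of the array and 7 member genes (11.3%, against 8.22% of all genes) were called, 3 of the large subunit, with 3 translation factor and 1 paralogue genes. With each probe tested by its own SD, 768 probes passed after adjustment, 7 of members, 1 member gene (1 small, 0 large; 1.61%, against 2.63% of all genes), and 0, 1 and 0 of the lists; at an unadjusted P under 0.05 there were 26 member genes (41.9%) and 4654 of 15539 genes in all. Separate channels without the array as a replicate block called 2226 probes, 3 of members, 1 gene (0 small, 1 large; 1.61%, against 7.72% of all genes), 1 translation factor and 1 paralogue gene. The cause of these shifts was not tested.

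With each array left out in turn, calls ranged from 2569 to 4981 across the array, 6 to 59 for member probes, 1 to 13 for member genes, 0 to 7 for the small and 1 to 6 for the large subunit, 1 to 4 for translation factors, 1 to 4 for biogenesis and 1 to 3 for kinases and paralogues. The lowest counts of member genes were 1 without array 3 and 2 without array 2. The median ranged from 0.087 to 0.14 and the gap between the medians of mean ratios from 0.045 to 0.072. Among the genes named, ratios that changed sign were those of *RPL13A* (0.75, 0.80 and 0.20), *RPL7* (0.73, 0.79 and 0.18), *RPLP1* (0.75, 0.81 and 0.18), *RPS13* (0.91, 0.97 and 0.32), *RPS27* (0.83, 0.89 and 0.29) and *COL3A1* (0.70, 0.75 and 0.098) without lowess, centred over all probes and with normexp, and *RPS3A* (0.21 and 0.26) and *RPL26L1* (0.26 and 0.31) in the first 2. By the mean of a gene's probes *RPL7* was 0.025, *RPS27* 0.0037 and *RPS6KB1* -0.11; *RPL10*, *RPS27A* and *EEF1A1* lost their call and *RPS6* gained one (0.26, adjusted P = 0.0356). Without the filter *RPS27A*, *RPS28*, *RPS3A*, *RPL10*, *RPL10L*, *RPL39* and *EEF1A1* lost theirs, and *RPS26* and *RPLP1* gained one. With the trend and robust prior *RPS6*, *RPS19*, *RPS26*, *RPL6* and *RPLP1* gained a call, and without array 1 *RPS6* and *RPL22L1* did. With the same sign, 12 of the genes named gained a call without lowess and 9 with normexp. Leaving out an array, *RPS27* ranged from -0.078 to 0.022, *RPSA* from -0.0096 to 0.076 and *RPL26L1* from -0.078 to 0.023. The cause was not tested. Both channels above background, marked spots kept and the series' list of values changed no call of a named gene. Dim probes such as those of *RPL3L*, *RPL10L*, *RPL37A* and *PDGFRA* have the least signal over background.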
